A study of Canis lupus familiaris with 22 samples.

Results

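Invasive urothelial carcinoma (iUC) of the dog, the common cancer of the canine bladder, was split here by the strength of its interferon signal. Of 22 arrays in the series, 18 hold iUC and 4 hold normal canine bladder, and the comparison is between 6 interferon-high and 6 interferon-low iUC samples. Each iUC sample was scored by the mean centred log2 value of the interferon-stimulated genes ISG15, MX1, IFI44, OAS1 and RSAD2. IFIT3, the remaining gene of the 6 in the rule, has no probe set listed under its symbol alone, so 5 genes made the score. The samples were thus chosen by measured values of these 5 genes, which are left out of all results. The 6 iUC samples of highest score formed the interferon-high side, the 6 of lowest score formed the interferon-low side, and the 6 between them are called middle. The sides are a measured grouping and no dog was treated with interferon, so every difference below says that a gene went with the score in these samples.

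The iUC samples were high grade tumour pieces taken by cystoscopy before any therapy, and the normal samples came from bladders of healthy dogs without tumours. Each of the 22 samples is a separate dog on its own array. Ages, strains and genotypes were not used. A tumour biopsy holds carcinoma cells together with stroma, vessels and immune cells, and fewer cells of a type cannot be told apart from less RNA in each of those cells.

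Interferons are secreted alarm proteins of antiviral defence. Sensors of foreign or misplaced RNA and DNA, such as the RIG-I-like helicases, the Toll-like receptors and the cGAS-STING route, pass through adaptors to the factors IRF3 and IRF7, which switch on interferon genes. Type I and type III interferons then bind their receptors and act through the kinases JAK1 and TYK2 on a complex that holds STAT2 and IRF9, while interferon gamma, made by T and NK cells, raises IRF1. The genes switched on block viral replication, load peptides onto MHC class I and, after interferon gamma, raise MHC class II and lymphocyte-attracting chemokines. In tumours such a signature can be carried by the cancer cells, by immune cells or by stroma.

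The score ran from -1.33 to 3.01 over the 18 iUC samples. The interferon-high side, iUC replicates 17, 6, 2, 11, 8 and 1 in falling order, had scores from 1.04 to 3.01 with a mean of 1.71 ± 0.74 (SD, n = 6). The interferon-low side, iUC replicates 12, 9, 15, 5, 16 and 13, had scores from -1.33 to -0.65 with a mean of -0.91 ± 0.25 (SD, n = 6). Replicate 17 stood above all other samples. The boundary on the high side lay between replicate 1 at 1.04 and replicate 14 at 0.78, and that on the low side between replicate 10 at -0.11 and replicate 12 at -0.65. Normal bladder scored from -1.44 to -1.25, around the lowest values of the interferon-low side. These values chose the samples and carry no test. When each of the 5 genes was left out of the score in turn, the same 6 high and 6 low samples were found.

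**Figure D1:**
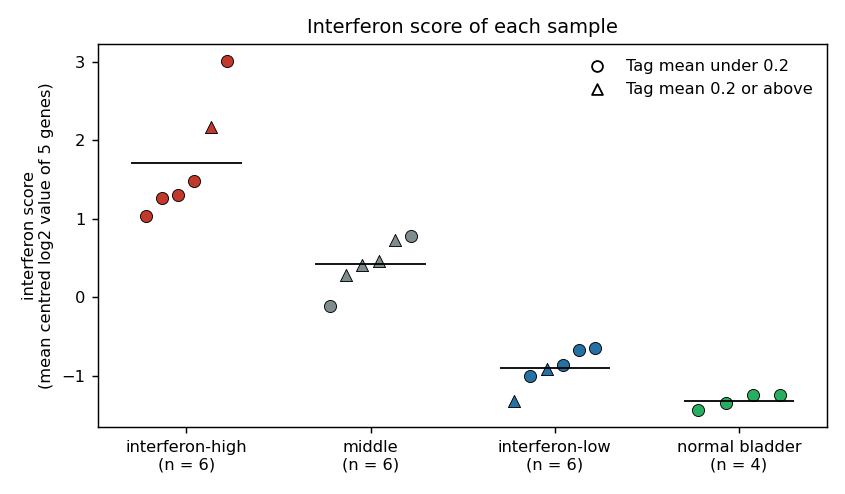
The interferon score (y axis, mean centred log2 value of 5 genes) of each sample in the interferon-high, middle and interferon-low iUC samples and in normal bladder. Bars are group means, and triangles mark arrays with a Tag mean of 0.2 or above. The high side spreads from 1.04 to 3.01, the 4 middle triangles lie between the sides, and normal bladder lies between -1.44 and -1.25.

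The series holds arrays that stand apart on the spike-in Tag control probes, and these were counted on each side. A Tag mean of 0.2 or above was found in 1 of 6 interferon-high samples (replicate 6), in 2 of 6 interferon-low samples (replicates 5 and 13), in 4 of 6 middle samples and in 0 of 4 normal samples. The mean Tag value was 0.0187 on the high side and 0.0992 on the low side (two-sided exact permutation test, p = 0.502). The other 4 array measures compared were the GAPDH and actin controls, the mean over all probe sets, their SD and the 3′ minus 5′ difference of GAPDH and actin. Their exact permutation p ran from 0.115 to 0.762, and the Benjamini-Hochberg adjusted values of all 5 ran from 0.574 to 0.762. The smallest p that 6 against 6 allows is 0.00216. The SD over all probe sets was 0.434 on the high side and 0.551 on the low side, and the part of these array measures in the results was not tested.

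Outside the score, 6 genes rose in the interferon-high iUC samples and 0 fell. They were RTP4, IFI44L, HERC6, USP18, MYD88 and FBLN5. The test was limma's moderated test over 15110 genes, with a Benjamini-Hochberg adjusted p of 0.05 or below and a change of at least 2-fold, so 0.0397% of the genes tested were called higher and 0.0% lower. At an unadjusted p under 0.05 limma found 530 genes higher (3.51%) and 196 lower (1.3%). An ordinary test on the t statistic, without limma's moderation, was run on the same values and is called the ordinary test below. It called 4 genes higher and 0 lower after adjustment, and 117 higher and 14 lower without adjustment. The paper's methods name a moderated test, so the ordinary test is an alternative to them. Values of the sides did not overlap for 43 genes that were higher on the high side (0.285% of genes) and 17 that were lower (0.113%). Tested singly, 19 of 42913 probe sets (0.0443%) were called higher, of which 13 with 1 symbol named 9 genes. These were the 6 called genes with CMPK2, LGALS9 and TAPBP. Over all genes the median difference, high minus low, was -0.04 on the log2 scale, with 6394 genes above 0 and 8716 below.

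**Figure D2:**
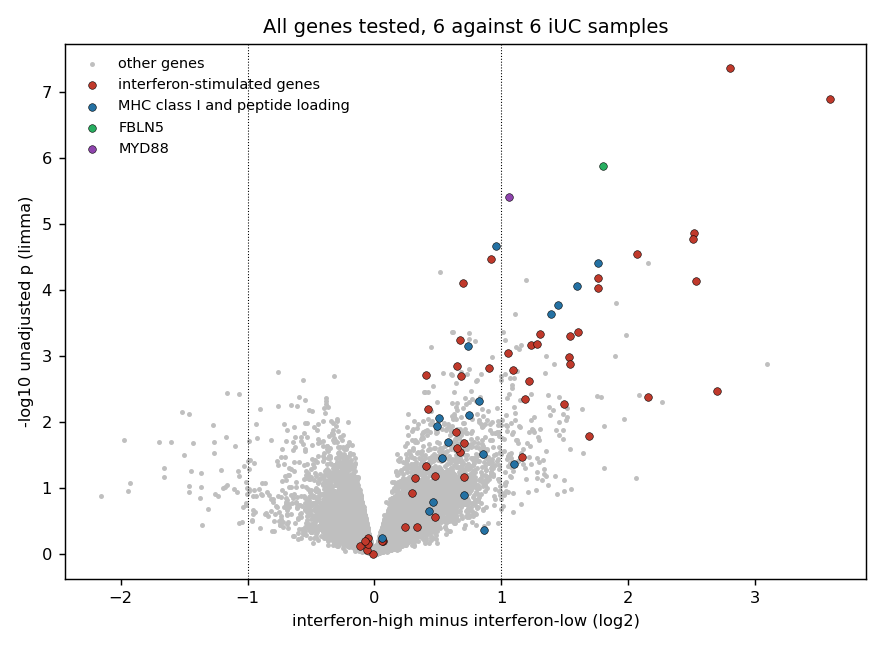
Difference between interferon-high and interferon-low iUC samples (x axis, log2, n = 6 against 6) against the unadjusted limma p as -log10 (y axis) for the 15110 genes tested. Dotted lines mark a 2-fold change. The interferon-stimulated genes and the genes of MHC class I and peptide loading lie mostly to the right, and RTP4, IFI44L, FBLN5 and MYD88 stand at the top.

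RTP4, a receptor transporter induced by type I interferon, ran from 1.67 to 2.79 with a median of 2.16 in the high samples, and from -1.13 to -0.07 with a median of -0.49 in the low samples. Every high sample lay above every low sample, by a wide margin. The difference was 2.80 on the log2 scale with a standard error of 0.23 (limma, adjusted p = 0.000652), or 6.98-fold. Its median in the middle samples was 0.35 and in normal bladder -0.95. RTP4 was measured by 1 probe set.

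IFI44L, a neighbour and paralogue of the score gene IFI44 that is induced by type I interferon, ran from 1.29 to 3.47 with a median of 2.31 in the high samples. In the low samples it ran from -1.68 to -0.41 with a median of -1.28, again without overlap. The difference was 3.59 with a standard error of 0.33 (limma, adjusted p = 0.000966). All 3 of its probe sets were called on their own, with differences from 3.23 to 3.95. Probe sequences were not used here, so cross-hybridisation between such paralogues was not tested.

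HERC6, a ubiquitin ligase of the family that attaches ISG15 to proteins, ran from 0.66 to 2.30 with a median of 1.46 in the high samples and from -2.30 to -0.18 with a median of -0.96 in the low samples. The sides did not overlap, but the middle samples reached 2.20. The difference was 2.52 with a standard error of 0.36 (limma, adjusted p = 0.0403).

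USP18, the protease that removes ISG15 and dampens signalling from the type I receptor, ran from 0.42 to 2.67 with a median of 1.58 in the high samples. In the low samples it ran from -1.43 to -0.21 with a median of -1.11. The normal bladder median was -1.42, and no low sample reached a high one. The difference was 2.51 with a standard error of 0.36 (limma, adjusted p = 0.0425). HERC6 and USP18 were the calls that depended most on single arrays. HERC6 was called in 4 of 12 fits that left out 1 sample, and lost without replicate 17, 6, 2, 11, 1, 15, 5 or 16. USP18 was called in 3 of 12, and lost without replicate 17, 6, 2, 1, 12, 9, 15, 16 or 13.

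MYD88, the adaptor that carries signals from most Toll-like receptors and the interleukin-1 receptor, ran from 0.55 to 1.19 with a median of 0.64 in the high samples and from -0.46 to -0.10 with a median of -0.34 in the low samples. The high samples lay in a narrow band above all low ones. The difference was 1.06 with a standard error of 0.13 (limma, adjusted p = 0.0147), close to the 2-fold limit. Its 3 probe sets did not move together. They differed by 1.80, 1.63 and -0.24, only the largest was called alone, and taking the probe set of largest variance for the gene gave the value of -0.24. Without replicate 6 or without replicate 15 MYD88 was no longer called.

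FBLN5, which encodes fibulin-5, a protein of elastic fibre assembly, was the only one of the 6 on neither the list of stimulated genes nor that of sensors. It ran from 0.94 to 1.65 with a median of 1.40 in the high samples and from -1.15 to 0.01 with a median of -0.31 in the low samples. The 6 high samples were close together and all above the low ones. The difference was 1.80 with a standard error of 0.20 (limma, adjusted p = 0.00659), and all 3 probe sets were called on their own with differences from 1.45 to 2.24. The middle samples spread from -1.30 to 1.93, wider than both sides together. Over all 18 iUC samples, with the score as a number, FBLN5 was not called (limma, adjusted p = 0.679).

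RTP4, IFI44L and FBLN5 were called in all 12 fits that left out 1 sample. With 4 against 4 samples FBLN5, HERC6, MYD88 and USP18 were not called, and CXCL10, ERICH2 and PARP14 were. After quantile normalization MYD88 and USP18 were not called. Among the arrays with a Tag mean under 0.2, 5 high against 4 low, the differences were 2.83 for RTP4, 3.43 for IFI44L, 2.12 for HERC6, 2.43 for USP18, 0.99 for MYD88 and 1.81 for FBLN5. RTP4 alone of these was called there, and ST3GAL6, a sialyltransferase, was called lower. Among the arrays of 0.2 or above, 1 high against 2 low, the differences were 2.68, 4.22, 3.25, 3.34, 1.47 and 1.56 in the same order, and none of the 6 was called. That fit assumes that the lone high sample varies like the others. With the Tag class as a block all 6 were called, and IFIT2 and PSMB8 joined them.

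**Figure D3:**
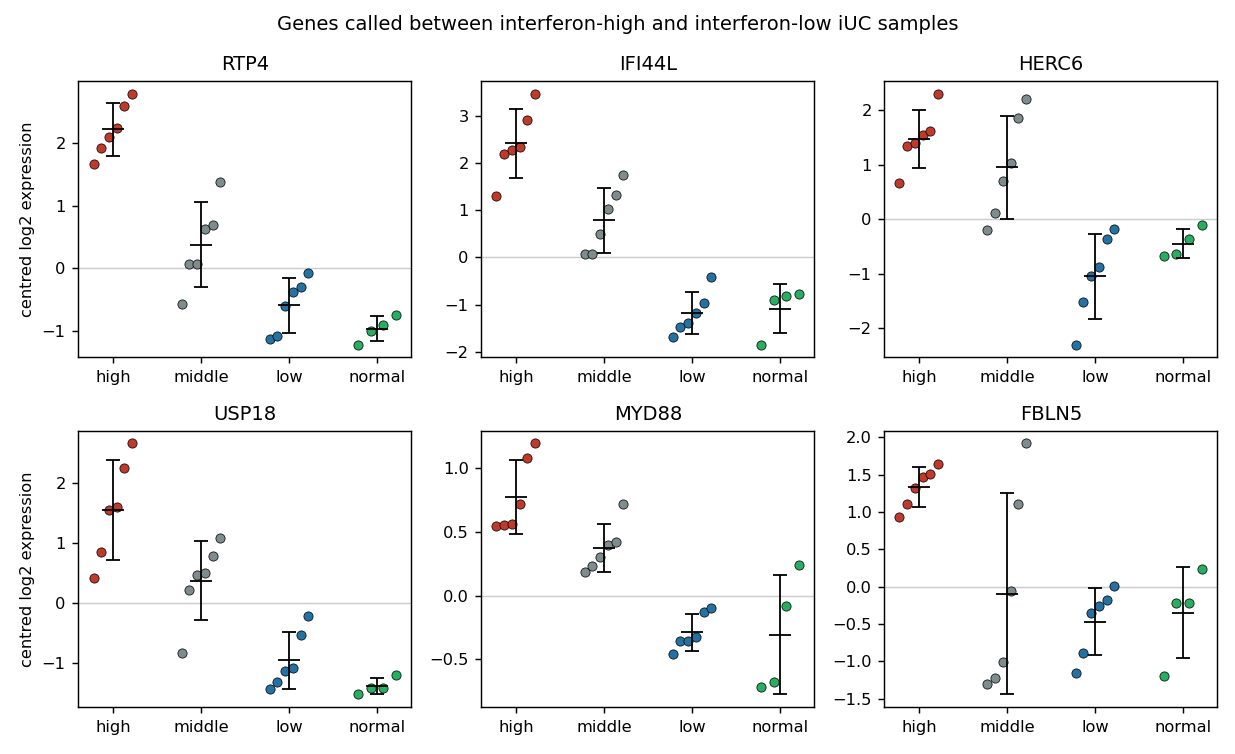
Centred log2 expression (y axis) of the 6 called genes in each interferon-high, middle and interferon-low iUC sample (n = 6 each) and each normal bladder sample (n = 4). Points are samples and bars are mean ± SD. High and low samples do not overlap in any panel, and the middle samples of FBLN5 split widely, from -1.30 to 1.93.

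Of 80 interferon-stimulated genes listed besides the score genes, 52 were measured, and 4 rose (IFI44L, RTP4, HERC6 and USP18) while 48 did not pass the test. The sides did not overlap for 19 of the 52, or 36.5% of the list beside 0.285% of all genes, and 46 of the 52 were above 0 with a median difference of 0.81. At an unadjusted p under 0.05, 37 were higher (71.15% beside 3.51% of all genes) and 0 lower. Among the arrays with a Tag mean under 0.2 there was no overlap for 27 of the 52, beside 0.973% of all genes, and the median difference was 0.87. The mean over the list ran from 0.44 to 1.47 in the high samples, from -0.19 to 0.32 in the middle, from -0.59 to -0.12 in the low samples and from -0.44 to -0.31 in normal bladder. Replicate 17 held the highest value of the 18 iUC samples for 35 of the 52 genes.

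Several stimulated genes, named after their values were seen, were large and without overlap but short of the adjusted threshold. MX2, a dynamin-like GTPase and paralogue of the score gene MX1, ran from 0.83 to 3.04 in the high samples and from -1.76 to -0.12 in the low samples, a difference of 2.54 (limma, adjusted p = 0.0721). IFIT2, which binds foreign RNA, ran from 0.21 to 2.41 and from -0.97 to -0.10, a difference of 2.07 (adjusted p = 0.0522). For both genes the weakest high sample was still above every low sample. CMPK2, a mitochondrial nucleotide kinase, differed by 1.76 (adjusted p = 0.0772), and IFI35 by 1.76 (adjusted p = 0.0721). A CMPK2 probe set with a difference of 3.09 was called alone, while its others, from 0.85 to 1.68, were not.

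Among the poly-ADP-ribose polymerases of the interferon response, PARP9 differed by 1.55 (limma, adjusted p = 0.246), its ubiquitin ligase partner DTX3L by 1.31 (adjusted p = 0.244) and PARP14 by 0.92 (adjusted p = 0.0522), each without overlap. The PARP14 probe sets differed by 0.07 and 1.77. EIF2AK2, the kinase PKR that halts translation on double-stranded RNA, differed by 1.22 (adjusted p = 0.487) and HERC5, the ligase of ISG15, by 1.53 (adjusted p = 0.337), again without overlap. DDX60, a helicase, had a larger difference of 2.70 but overlapped, because replicate 11 of the high side was at 0.35 and the low samples reached 1.83. OAS2, a sensor of double-stranded RNA related to the score gene OAS1, differed by 2.16 with overlap (adjusted p = 0.651).

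Not every stimulated gene went with the score. IFIT5, of the same family as IFIT2, differed by -0.01, from -1.18 to 1.11 in the high samples and from -1.27 to 1.77 in the low samples. IFI6 differed by -0.06. OAS3 differed by 0.41 (limma, adjusted p = 0.863), with high samples from -0.13 to 0.92 and low samples from -0.41 to 0.26. In these 3 genes the sides lay over each other.

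**Figure D4:**
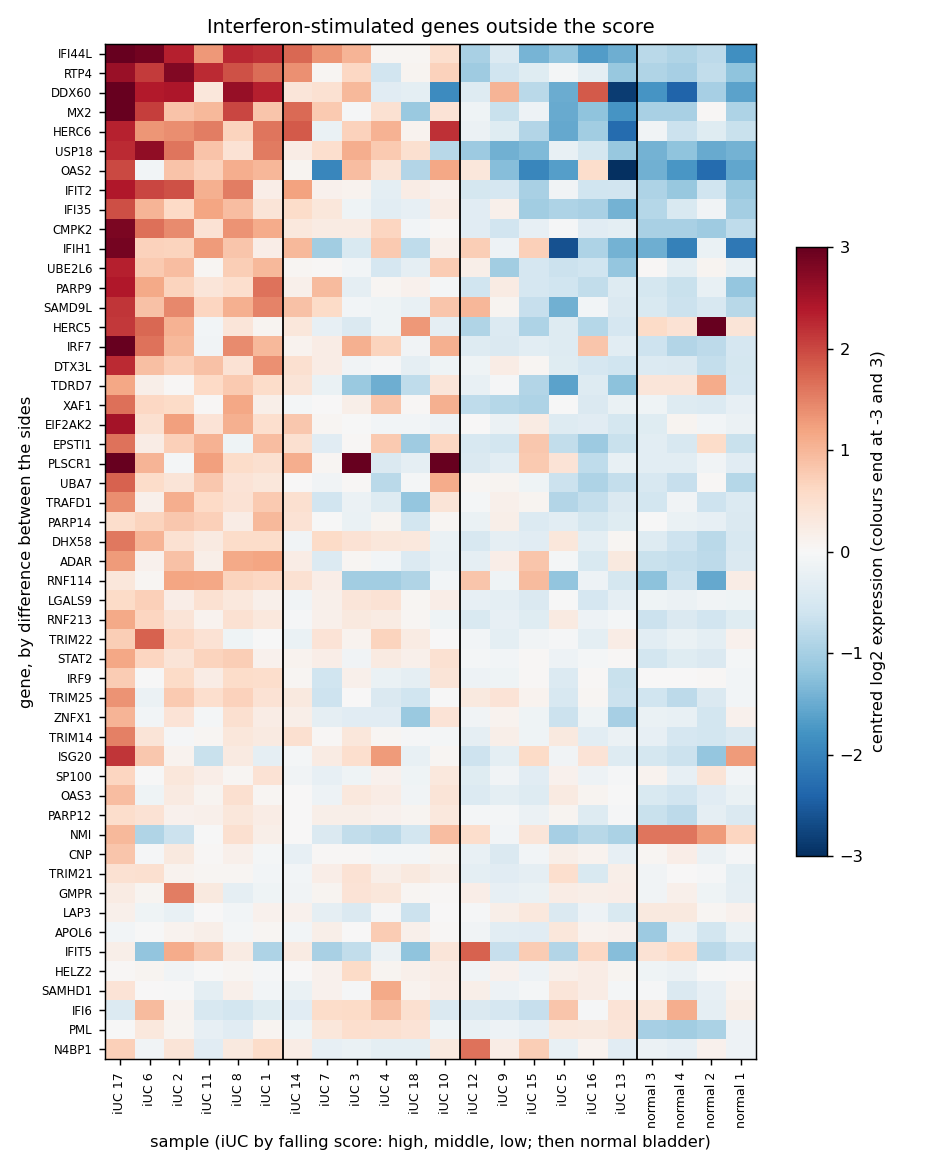
Centred log2 expression (colour) of the 52 measured interferon-stimulated genes outside the score, from the largest difference at the top, in the 18 iUC samples by falling score and in 4 normal bladder samples. Black lines part the high, middle, low and normal samples. The upper rows are red in the 6 high samples and strongest in replicate 17, while the lowest rows, with IFIT5 and IFI6, show no such pattern.

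With the score as a number over all 18 iUC samples, which uses the middle samples as well, 17 genes were called (0.113%), and with the Tag mean as a second covariate 22 were (0.146%). All of them were higher with a higher score, and 17 of the 22 were stimulated genes of the list. For a score step equal to the distance between the sides, 2.62, IFI44L rose by 3.42, MX2 by 2.51, USP18 by 2.57, IFIT2 by 2.04 and IFI35 by 1.69. The other 5 were MYD88, B2M, TAP1, CLEC12A and LOC488947. CLEC12A, an inhibitory lectin of myeloid cells, rose by 1.11 (limma, adjusted p = 0.0240), and LOC488947 by 3.15 (adjusted p = 0.0135). CLEC12A and LOC488947 are on none of the lists and are named because they were called. This fit shares the 12 samples of both sides and is not a separate test of the same genes.

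Of 19 sensors and adaptors listed, 11 were measured. MYD88 rose and 10 did not pass, beside 0.0397% of all genes higher. All 11 differences were above 0 (42.32% of all genes were), and the median was 0.87 beside -0.04 for all genes. At an unadjusted p under 0.05, 7 were higher (63.64% beside 3.51% of all genes). Values were higher without overlap for 1 (9.091% beside 0.285% of all genes). IFIH1 and DHX58 are also on the stimulated list, so the lists are not separate. IFIH1, the RNA helicase MDA5, ran from 0.19 to 2.86 in the high samples and from -2.61 to 0.74 in the low samples, a difference of 1.69 (limma, adjusted p = 0.863). DHX58, the helicase LGP2 that tunes MDA5, differed by 0.91 (adjusted p = 0.447), and its probe sets by 0.13 and 1.68. Both overlapped between the sides, IFIH1 the more so. The kinases downstream of the sensors had differences of 1.25 for IKBKE and 0.87 for TBK1, and the adaptor MAVS had 0.12. STING1, the adaptor of cytosolic DNA sensing, was at 0.49 and TLR3, the endosomal receptor for double-stranded RNA, at 0.93. TLR9, the receptor for unmethylated DNA, differed by 0.02.

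Of 25 measured interferon regulatory factors and members of JAK-STAT signalling, USP18 rose and 24 did not pass, beside 0.0397% of all genes higher. The median difference was 0.17, with 15 above 0 (60% beside 42.32% of all genes). At an unadjusted p under 0.05, 5 were higher (20% beside 3.51% of all genes). Values were higher without overlap for 2 (8% beside 0.285% of all genes). Values of STAT2, a transcription factor of type I interferon signalling, ran from 0.13 to 1.17 in the high samples and from -0.16 to 0.04 in the low samples, a difference of 0.67 without overlap (limma, adjusted p = 0.26). The STAT2 probe sets differed by -0.19 to 1.29, and none was called alone. IRF9, the DNA-binding part of the same complex, differed by 0.65, with 5 of 6 high samples above all low ones. IRF7, which amplifies interferon production, differed by 1.50 (adjusted p = 0.699). Its low samples reached 0.83 in replicate 16, and the next lower value was -0.32.

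Another 7 members of the same list had differences from -0.22 to 0.61. Those of the receptor kinases were 0.22 for JAK1, 0.37 for JAK2 and -0.12 for TYK2. IRF3, the factor directly downstream of the sensors, differed by 0.34 and IRF1, the factor of the interferon gamma response, by 0.61. The feedback inhibitors SOCS1 and SOCS3 differed by -0.22 and -0.12. None passed the test, and all 7 overlapped between the sides.

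No interferon gene passed the test. IFNB1, the type I interferon made by most cells, ran from -0.10 to 0.13 in the high samples and from -0.14 to 0.24 in the low samples, a difference of -0.08 with a standard error of 0.09. IFNG ran from -0.06 to 0.10 and from -0.10 to 0.07, a difference of 0.02 with a standard error of 0.06. The type III interferon IFNL1 differed by 0.04 and IFNK, a type I interferon of epithelium, by -0.05. All 4 interferons stayed within a narrow band near 0 in both sides, and centred values do not tell whether a transcript was above background. Their adjusted p in limma ran from 0.863 to 0.924.

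The receptors went a little further. IFNAR1, a chain of the type I receptor, ran from 0.03 to 0.58 in the high samples and from -0.64 to 0.21 in the low samples, a difference of 0.61 (limma, adjusted p = 0.449). IL10RB, a chain of the type III receptor, differed by 0.77 and its partner IFNLR1 by -0.02. IFNGR1 and IFNGR2, the receptor of interferon gamma, differed by 0.27 and 0.46. Of the 9 measured interferons and receptors 0 were called (limma) or without overlap, and the median difference was 0.04. At an unadjusted p under 0.05, 2 of the 9 were higher (22.2% beside 3.51% of all genes). The ordinary test also called 0 of them after adjustment.

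Of 19 measured genes of MHC class I presentation, limma called 0, and 2 (PSMB8 and TAPBP) with the Tag mean as a covariate. All 19 differences were above 0, and the median was 0.74 beside -0.04 for all genes. At an unadjusted p under 0.05 in limma, 14 were higher (3.51% of all genes were), and the ordinary test called 0 after adjustment. Values did not overlap for 5 of the 19 (26.3% beside 0.285% of all genes), which were TAPBP, B2M, TAP1, PSMB9 and PSMB8. Among arrays with a Tag mean under 0.2 there were 7 such genes, and the median was 0.65.

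PSMB8, a catalytic subunit of the immunoproteasome, ran from -0.16 to 1.30 with a median of 0.84 in the high samples and from -1.41 to -0.72 with a median of -1.21 in the low samples. The low samples were tightly grouped and all below the high ones. The difference was 1.77 with a standard error of 0.28 (limma, adjusted p = 0.0522), just outside the threshold. PSMB9, its partner subunit, differed by 1.60 (adjusted p = 0.0766), and PSMB10, the remaining inducible subunit, by 0.50 with overlap.

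TAP1, which pumps peptides into the endoplasmic reticulum, ran from 0.62 to 2.02 in the high samples and from -1.06 to 0.09 in the low samples, a difference of 1.45 (limma, adjusted p = 0.127). TAP2, its partner in the pump, differed by 0.74. TAPBP, or tapasin, which bridges the pump to the class I molecule, passed the adjusted threshold at 0.0452 but its difference of 0.96 was under 2-fold, so it was not called. Tested singly, a TAPBP probe set differed by 1.13 and was called, and the other at 0.78 was not. B2M, the invariant light chain of class I, ran from 0.11 to 0.81 in the high samples and from -1.93 to 0.07 in the low samples, a difference of 1.39 (adjusted p = 0.158).

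The class I heavy chains themselves were more scattered. DLA88, the main polymorphic class I gene of the dog, ran from -2.83 to 1.48 in the high samples and from -3.76 to 0.92 in the low samples, so that the difference of 0.86 had a standard error of 1.05. DLA-64 and DLA-79, less variable class I genes, differed by 1.10 and 0.70. These genes are near-identical in part, and the signal of a probe set can come from another gene of the family. NLRC5, the transactivator of class I genes, differed by 0.06.

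The 16 measured MHC class II genes had a median difference of 0.75 and all were above 0, but limma called 0 and 8 were higher at an unadjusted p under 0.05, which 3.51% of all genes were. The ordinary test called 0 after adjustment. DLA-DRA, the class II alpha chain, ran from -0.36 to 1.09 in the high samples and from -1.36 to 0.30 in the low samples, a difference of 0.73 (limma, adjusted p = 0.863). CD74, the invariant chain, differed by 0.95. CTSS, the protease that trims it, was the 1 member of 16 that was higher without overlap (0.285% of all genes were), with a difference of 1.34 (adjusted p = 0.449), and was named after its value was seen. CIITA, the class II transactivator, differed by 0.12.

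Of 22 measured genes of the interferon gamma response, limma and the ordinary test after adjustment each called 0. At an unadjusted p under 0.05 in limma, 5 were higher and 0 lower, and the median difference was 0.11. Some of the largest single values were here, and these are named for their values. IDO1, the enzyme that depletes tryptophan, ran from 0.44 to 4.32 with a median of 1.84 in the high samples and from -0.71 to 1.16 with a median of -0.37 in the low samples. CXCL10, a chemokine that draws T cells, ran from -0.07 to 3.11 with a median of 2.28 in the high samples and from -1.01 to 2.05 with a median of -0.52 in the low samples. Both were high in most interferon-high samples, with overlap. The differences were 2.27 for IDO1 (limma, adjusted p = 0.688) and 1.97 for CXCL10 (adjusted p = 0.825). GBP1 and GBP5, guanylate-binding proteins of the same response, differed by 0.25 and 0.02.

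The 29 measured T and NK cell genes lay near 0, with a median difference of -0.06, 20 below 0 and 0 past an unadjusted p of 0.05 in either direction. CD3E, a chain of the T cell receptor complex, differed by 0.01 with a standard error of 0.14, and CD3D by 0.09 with 0.30. CD8A differed by -0.01 and the cytotoxic protease GZMB by 0.00. The mean over the list ran from -0.14 to 0.26 in the high samples and from -0.23 to 0.29 in the low samples, so the sides lay over each other.

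Checkpoint and regulatory T cell genes gave a median of -0.10 over 17 genes, with 0 called by limma or by the ordinary test after adjustment. At an unadjusted p under 0.05 in limma, 3 were higher. CD274, which encodes PD-L1, differed by -0.03 with a standard error of 0.12, and its receptor PDCD1 by -0.18. LGALS9, a galectin that binds TIM-3 and is also on the stimulated list, ran from 0.15 to 0.72 in the high samples and from -0.49 to -0.01 in the low samples, without overlap (difference 0.69, adjusted p = 0.0737 in limma, named after its value was seen). HAVCR2, which encodes TIM-3, was the other member without overlap, at a difference of 0.27 (limma, adjusted p = 0.784), named on the same ground. These 2 genes were 11.76% of the list, beside 0.285% of all genes. Tested singly, a LGALS9 probe set differed by 1.28 and was called, and the other at 0.11 was not. The 22 chemokines had a median of 0.00, with 0 called by either test. At an unadjusted p under 0.05, 2 were higher (9.09% beside 3.51% of all genes) and 1 was lower (1.3% of all genes were). CCL5 differed by 0.40 and CXCL8, which draws neutrophils, by -0.96.

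Of 23 measured macrophage and monocyte genes, 20 were above 0 with a median of 0.43, beside 6394 of 15110 genes above 0 and a median of -0.04 in all. At an unadjusted p under 0.05, 13 were higher beside 3.51% of all genes, and limma and the ordinary test after adjustment each called 0. The mean over the list ran from -0.18 to 0.55 in the high samples and from -0.65 to 0.02 in the low samples. The classical markers CD14, CD68 and CD163 differed by -0.06, 0.22 and 0.24. Larger values, named after they were seen, were 0.74 for CSF1R, the receptor of macrophage growth, 0.93 for AIF1 and 1.10 for C1QA, a chain of complement C1q (limma, adjusted p from 0.337 to 0.472). No gene of the list was without overlap. The part of macrophage content in the stimulated and MHC values was not tested.

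The other blood cell lists held 0 called genes in limma. Medians were -0.04 over 13 dendritic cell genes, -0.15 over 18 genes of neutrophils and acute inflammation, -0.06 over 15 B and plasma cell genes and -0.10 over 10 mast cell and eosinophil genes. At an unadjusted p under 0.05 none was higher (3.51% of all genes were). At the same limit 1 neutrophil gene and 1 B and plasma cell gene were lower (1.3% of all genes were). S100A8 and S100A9, the calprotectin subunits abundant in neutrophils and inflamed epithelium, differed by -1.93 with a standard error of 1.02 and by -1.66 with 0.76. S100A8 ran from -3.93 to 2.97 in the low samples, and the low samples were thus widely spread. Among arrays of 0.2 or above on the Tag measure, only 1 high against 2 low, the differences were 0.65 and 0.53. Among the others, 5 high against 4 low, they were -3.30 and -2.69. The B cell genes MS4A1 and CD79A and the mast cell receptor KIT differed by -0.02, 0.02 and -0.18.

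Of 16 measured smooth muscle genes, 14 were below 0 with a median of -0.58, beside 8716 of 15110 genes below 0 and a median of -0.04 in all. At an unadjusted p under 0.05, 6 were lower beside 1.3% of all genes. By limma or by the ordinary test after adjustment 0 were called. ACTA2, smooth muscle actin, ran from -2.48 to 0.37 with a median of -0.63 in the high samples and from -0.67 to 2.06 with a median of 0.72 in the low samples. The normal bladder median was 4.21, above every iUC sample of both sides. The difference was -1.43 (limma, adjusted p = 0.863), and those of ACTG2 and MYH11 were -0.95 and -0.60. SMTN, or smoothelin, was the 1 member lower without overlap (0.113% of all genes were), at -0.56 (adjusted p = 0.479), and was named after its value was seen. The mean over the list ran from -0.52 to 0.09 in the high samples, from -0.47 to 1.29 in the low samples and from 2.76 to 4.43 in normal bladder. The part of muscle content in the results was not tested.

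The 20 fibroblast and matrix genes had a median of 0.02 and the 16 endothelial genes of -0.21, with 0 called in limma. At an unadjusted p under 0.05, 2 matrix genes were lower (1.3% of all genes were) and none was higher in either list. Of the matrix genes 11 were above 0 and 9 below, from -1.43 (ACTA2) to 1.42 (LUM). DCN and LUM, proteoglycans of fibroblasts, differed by 1.28 with a standard error of 0.60 and by 1.42 with 0.70. They were named for their values because FBLN5 is also a matrix gene. Other matrix genes fell, such as PDGFRA by -0.57 and FN1, with probe sets from -0.94 to -0.44. The endothelial genes PECAM1, VWF and CDH5 differed by 0.01, -0.54 and -0.03.

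Of 26 urothelial and luminal genes, 21 were above 0 with a median of 0.32. At an unadjusted p under 0.05 in limma, 1 was higher, and 0 were called by limma or the ordinary test after adjustment. The uroplakins of the luminal surface differed by 0.43 for UPK1A, 1.21 for UPK1B and 0.30 for UPK2, all with overlap. The basal and squamous list of 16 genes had a median of -0.16 with 14 below 0, and 0 called. TP63, the basal transcription factor, differed by -0.15, and KRT16, a keratin of stressed squamous epithelium, by -1.46 with a standard error of 0.45 (limma, adjusted p = 0.79). EGFR, the epidermal growth factor receptor, was the member of this list without overlap (6.25% beside 0.285% of all genes) and went the other way. It ran from 0.16 to 1.05 in the high samples and from -0.50 to 0.07 in the low samples (difference 0.68, limma, adjusted p = 0.449). KRT16 and EGFR were named after their values were seen.

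Cell cycle genes overlapped between the sides. The 27 cell cycle genes had a median of -0.11 with 0 past an unadjusted p of 0.05, and TOP2A and CDK1 differed by 0.05 with a standard error of 0.48 and by 0.12 with 0.56. The 19 hypoxia and glycolysis genes had a median of -0.08 and 0 calls, with CA9 at -0.08 and VEGFA at -0.56. Among 15 cell death genes of the interferon response, median 0.09 and 0 called, TNFSF10 and XAF1 had no overlap and were named for it. They were 13.3% of the list, beside 0.285% of all genes. TNFSF10, the death ligand TRAIL, ran from -0.08 to 2.07 in the high samples and from -1.90 to -0.68 in the low samples, a difference of 1.91 (limma, adjusted p = 0.125). XAF1, an inhibitor of XIAP, differed by 1.24 and FAS, a death receptor, by 0.24. The 15 complement genes had a median of 0.56 with 12 above 0, and 0 were called by either test. At an unadjusted p under 0.05, 4 were higher (26.7% beside 3.51% of all genes). C1R and C1S, the proteases of the C1 complex, differed by 0.61 and 1.08 and C3, the central component, by 1.00, named after their values were seen.

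**Figure D5:**
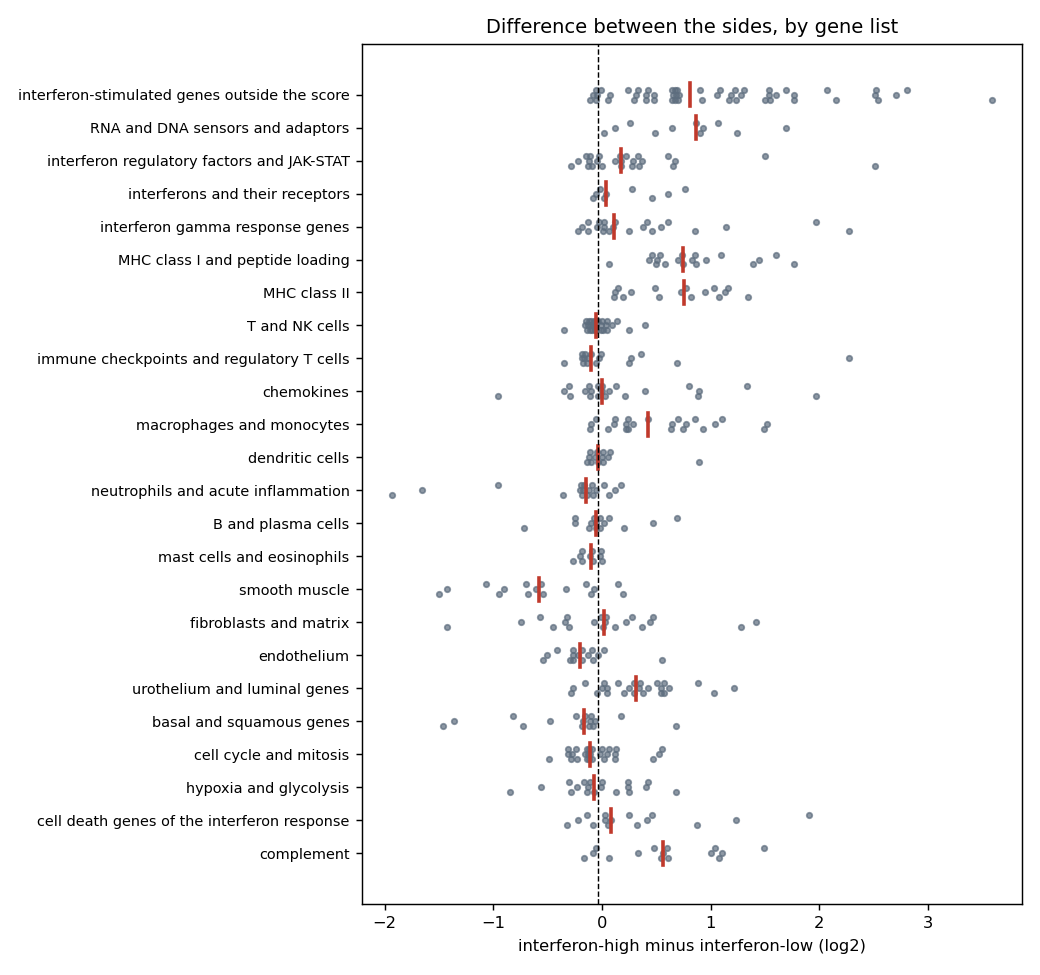
Difference between interferon-high and interferon-low iUC samples (x axis, log2) for every measured gene (points) of each of the 24 gene lists, with the list median in red and the median of all genes, -0.04, as a dashed line. The stimulated genes (0.81), sensors (0.87) and both MHC lists (0.74 and 0.75) lie to the right, smooth muscle (-0.58) to the left, and T and NK cell genes (-0.06) near the dashed line. Some genes are on more than 1 list, such as IFIH1 and DHX58 among stimulated genes and sensors.

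Values of normal bladder are set beside the sides as a description. The mean over the stimulated genes had a median of 0.65 in the high samples, 0.13 in the middle, -0.25 in the low samples and -0.42 in normal bladder. RTP4, USP18 and IFI44L had low medians of -0.49, -1.11 and -1.28 beside -0.95, -1.42 and -0.86 in normal bladder. HERC5 had a normal median of 0.50, between those of the low samples, -0.67, and the high samples, 0.70. CHCHD7, a gene of mitochondrial assembly named for its difference of 2.16 (limma, adjusted p = 0.0522), had a normal median of 2.15, above the high median of 1.00 and the low median of -1.08.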

How the data were processed

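Arrays of the Affymetrix Canine 2.0 design were hybridised with RNA of 18 iUC and 4 normal bladder samples, 1 array and 5 µg of RNA per sample. The authors deposited log2 values of 43035 probe sets, each centred on its median over the 22 arrays, so levels and a low-expression filter cannot be had. The sources used here do not name the summarisation of probes or the normalization of arrays, and the number of arrays limits the precision. Replicates are separate dogs.

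Of 42924 probe sets other than controls, 29254 have 1 gene symbol in the platform's annotation. Averaging the probe sets that share a symbol gave 15115 genes. The 5 score genes were left out, and 15110 were tested with limma 3.58.1 in R 4.3.3 (lmFit, eBayes, no covariates). Genes were called at 2-fold or more with a Benjamini-Hochberg adjusted p of at most 0.05. The fits were tested on simulated data, with noise drawn for each gene separately. That simulation did not choose samples by a score, so it does not cover how the sides were made. Array measures were compared by exact permutation over 924 regroupings. The Tag mean averages 17 spike-in probe sets.

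The samples, the 24 lists and the tests were chosen with earlier results of these data known. Members are counted as called, and genes are named if called, on the lists of sensors, signalling, interferons or MHC class I, or standing at the head of a list without calls. Some others are said to be named for their values, and the rest, such as CD8A and GZMB, were named outside these rules. Alternatives changed the scaling, Tag treatment, group size, score, probe set choice, weights, test and each sample in turn. Promoter motifs were not analysed here.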

Additional observations from a re-analysis of the deposited data

Results flagged for a closer look

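A single sample lay far from the rest of its group, by the gap to its neighbour as a share of the group's range, in 34 of 372 combinations of a named gene, the score or an array measure with a group. Chance gives about 1 in 20 groups. Values are centred log2 values, and no explanation was tested. On the interferon-high side the samples that stood apart were DDX60 in replicate 11 (0.348, the next value being 2.34), MAVS in replicate 11 (-0.404, the next value being 0.145), SOCS1 in replicate 6 (0.752, the next value being 0.19) and IFNGR1 in replicate 6 (-0.372, the next value being 0.124). Also apart were CCL5 in replicate 2 (1.83, the next value being 0.365), CD3D in replicate 2 (1.16, the next value being 0.152), PDCD1 in replicate 6 (0.794, the next value being 0.113) and UPK1B in replicate 8 (-1.57, the next value being 0.159). Further ones were UPK2 in replicate 11 (-0.291, the next value being 0.221), KRT16 in replicate 6 (0.0238, the next value being -0.348), TOP2A in replicate 6 (-0.634, the next value being 0.553) and VEGFA in replicate 11 (2.41, the next value being 0.444). The rest were the mean over all probe sets in replicate 6 (-0.07, the next value being 0.0761). On the interferon-low side the samples that stood apart were PARP9 in replicate 9 (0.251, the next value being -0.392), STING1 in replicate 15 (-0.669, the next value being -0.301), IKBKE in replicate 15 (0.513, the next value being -0.263) and IRF7 in replicate 16 (0.832, the next value being -0.319). Also apart were CXCL10 in replicate 12 (2.05, the next value being 0.0682), CD3D in replicate 12 (1.08, the next value being 0.0163), CD68 in replicate 9 (1.21, the next value being -0.036) and C1S in replicate 13 (1.36, the next value being -0.202). Further ones were C1R in replicate 13 (1.17, the next value being -0.333). In normal bladder the samples that stood apart were IFI44L in replicate 1 (-1.85, the next value being -0.903), MX2 in replicate 2 (0.0263, the next value being -0.933), HERC5 in replicate 2 (3.55, the next value being 0.573) and TLR9 in replicate 1 (-0.0949, the next value being -0.829). Also apart were MAVS in replicate 1 (-0.00285, the next value being -0.697), TAP2 in replicate 2 (-0.0848, the next value being -0.453), CSF1R in replicate 1 (1.27, the next value being -0.273) and CDH5 in replicate 1 (0.0869, the next value being -0.243). Further ones were TP63 in replicate 1 (-0.0794, the next value being -0.459), FAS in replicate 2 (-1.17, the next value being 0.326), TNFRSF11B in replicate 3 (0.945, the next value being -0.0205) and the mean over all probe sets in replicate 1 (0.0771, the next value being 0.123).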

How the results depend on the processing

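No paired analysis was possible because all compared samples belong to the iUC group and share no replicate numbers. The 6 genes called higher became 10 with 75th percentile scaling, 10 with the probe set of largest variance, and 1 (RTP4) on arrays with a Tag mean under 0.2. They became 1 (IFI44L) with 9 against 9 samples, 17 with the score over 18 samples and 22 with the Tag mean added. Testing probe sets gave 19, and the ordinary test without adjustment gave 117. Leaving out 1 sample gave from 3 to 8 higher genes, and the 3 came without replicate 6 and without replicate 15, which both lost HERC6, MYD88 and USP18. The 0 genes called lower became 1 on arrays with a Tag mean under 0.2 and 14 by the ordinary test without adjustment. They stayed 0 in every fit that left out a sample. The 4 stimulated genes called became 1 on arrays with a Tag mean under 0.2 and 1 with 9 against 9 samples. The score over 18 samples gave 13 without and 17 with the Tag mean. They became 8 with the probe set of largest variance, and 2 and 23 by the ordinary test with and without adjustment. Leaving out 1 sample gave 2 to 5 stimulated genes (2 without replicate 6, 2, 15 or 16). The 0 genes of MHC class I called became 2 with 75th percentile scaling, with the Tag mean as a covariate and with the score and the Tag mean over 18 samples. They became 1 with the Tag class as a block, the score alone, array weights, no fold limit or the probe set of largest variance. The ordinary test without adjustment gave 4, and leaving out 1 sample gave 0 to 2 (2 without replicate 1). Genes without overlap went from 43 higher and 17 lower to 147 higher and 208 lower among arrays with a Tag mean under 0.2, where fewer samples enter, an alternative chosen after seeing the data. MYD88 turned from 1.06 to -0.24 with the probe set of largest variance, and the cause of the other changes was not tested. The Tag difference of the sides was -0.08 with the mean and -0.05 with the median of its probe sets. Signal over background is unknown for centred values, so a difference near 0 in a gene such as IFNB1 may lie below what the arrays measure. With 6 arrays a side, a gene needs a large and even difference to pass over 15110 tests.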

Other observations

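Outside the lists, the 12 samples held further genes of large but uncalled difference, chosen here after their values were seen. SLPI, an antiprotease of mucosal secretions, ran from -0.60 to 2.96 in the interferon-high samples and from -0.12 to 6.42 in the low samples, a difference of -2.15 with a standard error of 1.32 (limma, adjusted p = 0.863). TNFRSF11B, the decoy receptor osteoprotegerin, ran from -0.23 to 0.64 in the high samples and from 0.02 to 4.84 in the low samples, a difference of -1.97 (limma, adjusted p = 0.863). Both were high in some of the low samples and not in others. Of the 19 probe sets called higher, 6 had no gene symbol or several and are not named.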
